A study of Homo sapiens with 11 samples.

Results

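The genes described here are 38 genes of the DNA damage response and of DNA repair, out of the 57773 genes of the expression table and listed by name for their place in the pathway. Their expression was read in 9 RNA-Seq libraries and their splicing in tables of annotated events. All libraries came from HCC78, a lung adenocarcinoma cell line that itself carries U2AF1 S34F and an SLC34A2-ROS1 fusion. U2AF1 is the splicing factor that recognises the AG at the 3′ end of introns, and S34F replaces a serine by a phenylalanine in one of its zinc fingers. The study asked how the S34F isoform changes RNA binding, expression and splicing.

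In the induced groups, stable subclones carrying a doxycycline-inducible lentiviral vector for FLAG and HA tagged U2AF1 were given doxycycline to express the wild-type (WT dox+, 2 libraries) or the S34F isoform (S34F dox+, 2 libraries). The uninduced groups were the same lines without doxycycline, with 2 libraries of WT dox- and 1 of S34F dox-. The parental line had 2 libraries, labelled as without doxycycline, although the study's supplement lists them with it. If the supplement is right, WT dox- against the parental line also compares doxycycline, which cannot be told apart from the construct. Every group therefore expressed some S34F from the cell's own gene. The labels give S34F as 12 and 14 parts of 100 of U2AF1 mRNA in WT dox+, 62 and 65 in S34F dox+, 33 and 33 in WT dox-, 28 in S34F dox- and 32 and 32 in the parental line, so wild-type against S34F is here a comparison of a low with a high share. It is also a comparison of different subclone lines, since each isoform was carried by its own, and of different total U2AF1 levels, given below. The induced groups alone cannot tell the share of S34F from the line or from the U2AF1 level. The labels do not say that replicates were separate cultures, so p-values measure only the spread between these libraries, which may be technical.

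Cells that meet broken or stalled DNA activate the kinases ATM and ATR, which pass the signal to CHEK2 and CHEK1 and halt the cell cycle. Breaks are then joined end to end by the Ku proteins or copied from the sister chromatid by homologous recombination with BRCA1 and BRCA2, while the Fanconi anaemia proteins open crosslinks and helicases and annealing helicases such as BLM and SMARCAL1 handle stalled replication forks. Mismatch, base excision and nucleotide excision repair remove errors and damaged bases from a single strand. Many of these genes are large and have many exons, and skipped exons or shifted splice sites are well known in several of them.

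All 38 genes were at or above 1 FPKM (fragments scaled by transcript length and by the mapped reads of the library) in each of the 9 libraries, and all passed the filter of a mean of 1 FPKM. The 6 epithelial marker genes summed to between 8422 and 11419 FPKM per library, and the 9 of 10 listed markers found in the table for immune, fibroblast and endothelial cells to between 4.12 and 15.7 FPKM. The induced libraries differed from the rest in more than the construct. FPKM of U2AF1 was 277.6 and 299 in WT dox+, 164 and 223 in S34F dox+ and between 103 and 115 in the other 5 libraries. The second S34F dox+ library stood apart, with 20896 genes at 1 FPKM or above against 13661 to 17716 in the other 8, and both S34F dox+ libraries appeared shallower, at 0.688 and 0.599 of the depth of the first parental library as read from genes of low FPKM, against 0.859 to 1.27 in the others. For SMARCAL1, FANCI and the median of the 38 genes, differences between the induced groups are therefore also given with libraries left out. For the other genes and the other lists they are not given.

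SMARCAL1 encodes an annealing helicase that is recruited by RPA to stalled forks and rewinds them, and one of its cassette exons showed the most divergent splicing of the whole gene group. The exon spans chr2:217303143-217303208 (hg19, plus strand, with its end taken from the donor of the next listed event), is 66 bases long and so adds a whole number of codons, 22, without shifting the reading frame. It lies 2923 bases after the donor at 217300219 and 8532 bases before the acceptor at 217311741. Its percent spliced in (PSI), the fraction of transcripts that include the exon, was 0.90 for S34F and 0.27 for wild-type, with 306 and 517 reads listed for the event. The exon was thus skipped in 0.10 of transcripts for S34F and 0.73 for wild-type, a difference in PSI of 0.63. Among the 36059 skipped exon events of all genes with at least 20 reads in each condition, 15 (0.0416%) had a difference of that size or more in either direction, and the SMARCAL1 exon was the only one of 167 such events in the 38 genes.

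The tables compare cells transduced with S34F and with wild-type U2AF1 and give PSI once per condition, without replicates, so the differences carry no error, no n and no test. The reads are counted over the transcripts of an event and not over its junctions alone, since several events of a gene list the same number, and no counting interval can be drawn from them. Which of the values was S34F was taken from the name of the comparison, which puts the mutant before the wild-type. These differences are therefore values of 1 comparison, and were not checked against the spread between replicates. The tables give no separate PSI for the lines without doxycycline, so the part of the line in these differences was not tested.

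SMARCAL1 had further differences upstream of this exon. An exon whose acceptor is at chr2:217278579 had a PSI of 0.42 for S34F and 0.63 for wild-type. At the same acceptor, an event with 4 alternative 5′ splice sites had 1 form at 0.69 for S34F and 0.33 for wild-type, with only 31 and 119 reads. A pair of donors 5 bases apart, at 217293505 and 217293500, was used in the longer form at 0.32 for S34F and 0.14 for wild-type. The other 2 skipped exon events of the gene differed by at most 0.04 between the conditions, at 0.94 and 0.98 and at 0.08 and 0.11.

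The level of SMARCAL1 RNA was read in each library. FPKM of SMARCAL1 was 15.2 and 12.6 in the parental line, 16.2 and 14.3 in WT dox-, 13.6 in S34F dox-, 17.6 and 17.1 in WT dox+, and 14.1 and 13.9 with S34F dox+. Both S34F dox+ libraries were below both WT dox+ libraries, and within the range of the uninduced and parental libraries. On the log2(FPKM + 1) scale the difference was -0.29 (standard error 0.14, 95% interval -0.62 to 0.04), which did not pass the test (adjusted p = 0.755 from limma). It lay between -0.31 and -0.27 as each of the 4 induced libraries was left out. The size depended more on the unit and scaling, at -0.32 with median-ratio and -0.34 with quantile scaling. With TPM, the other unit deposited, it was -0.40, where the median of all genes was -0.074 in place of 0.029.

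Across the 38 genes, most events of splicing were alike in the 2 conditions. The tables hold 348 events on the strand of these genes, of which 340 had at least 20 reads in each condition. The median difference was 0.03 in size, against 0.04 over the 73352 events of all genes with such reads, and 210 of the 340 events were within 0.05. An event was counted as apart where the PSI of S34F and wild-type differed by 0.20 or more. Of the 340 events, 30 were apart (8.82%), 19 with a higher and 11 with a lower PSI in S34F, against 11.5% of all events, 5.9% higher and 5.65% lower. The share of divergent events in the 38 genes was below that of the tables as a whole. They also listed more reads, with a median of 630.5 and 1009 reads per event against 330 and 473. Such reads cover the transcripts of an event, and do not measure how well the splice choice itself was covered. Among events with at least 100 listed reads in each condition 25 of 322 (7.76%) were apart, against 8.86% of all. Events near the limit include an exon of NBN at a difference of 0.20 just inside it and a NAGNAG acceptor of RAD51C at -0.19 just outside it.

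**Figure D1:**
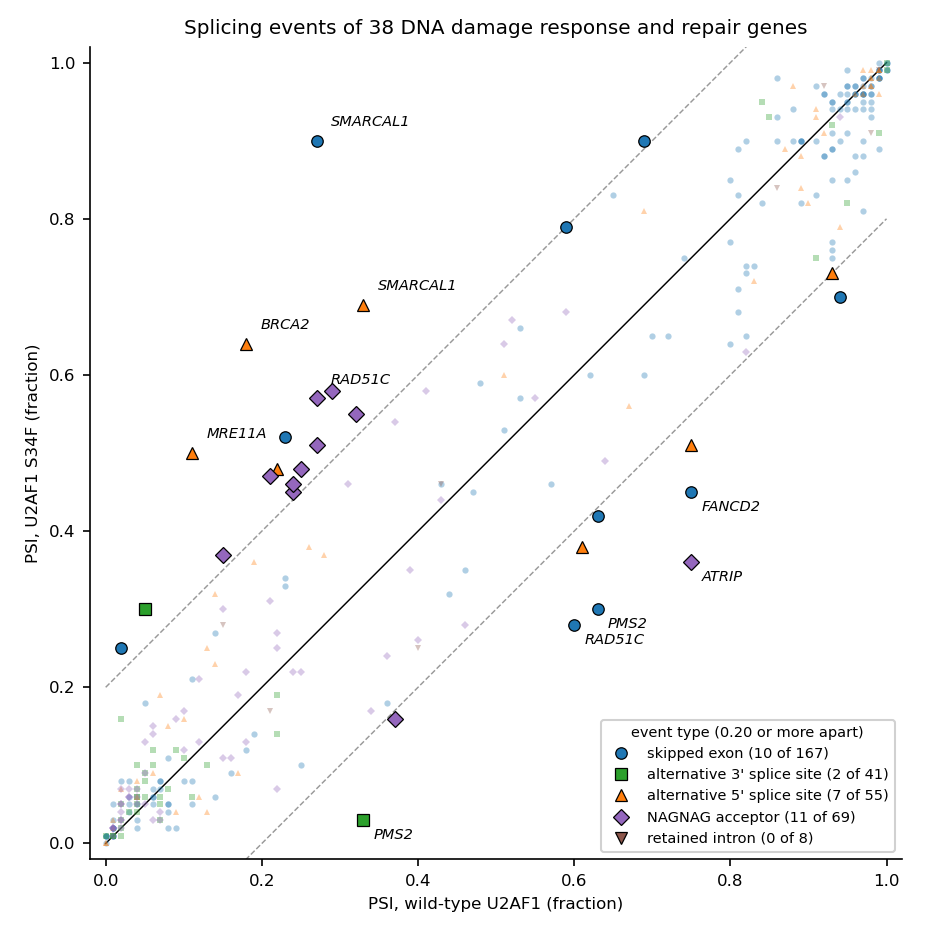
PSI of each of 340 events of the 38 genes with at least 20 reads in each condition, in wild-type (horizontal axis, fraction) and in S34F (vertical axis, fraction), with 1 point per event and a symbol for each event type. Dashed lines mark a difference of 0.20, outlined symbols the 30 events at or beyond it, of which those at about 0.30 or more carry the gene name, and the SMARCAL1 exon lies farthest from the diagonal at 0.27 and 0.90.

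By type of event, 10 of 167 skipped exons (5.99%) were apart, 5 higher and 5 lower in S34F, against 11.1% of all skipped exons, 5.62% higher and 5.5% lower. Of 41 alternative 3′ splice sites 2 were apart, 1 in each direction, against 11.7%, of which 5.82% were higher and 5.87% lower. Of the 8 retained introns 0 were apart, against 10.7%, with 4.52% higher and 6.22% lower. Alternative 5′ splice sites, a choice that U2AF1 does not itself recognise, had 7 of 55 events apart (12.7%), 4 higher and 3 lower, against 10.2%, with 4.74% higher and 5.49% lower. NAGNAG acceptors, which are pairs of acceptors 3 bases apart, had 11 of 69 apart (15.9%), against 14.1%. In these pairs PSI is the use of the upstream acceptor, which leaves 3 more bases in the mRNA, and it was higher in S34F in 9 and lower in 2. Of those 9, 4 are entries of a single acceptor pair of RAD51C, so 8 separate pairs were apart, 6 with more and 2 with less use of the upstream acceptor. The share of 15.9% counts the RAD51C pair 4 times, and repeated pairs were not merged in the 14.1% of all events either. Over all NAGNAG events 8.31% were higher and 5.81% lower.

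**Figure D2:**
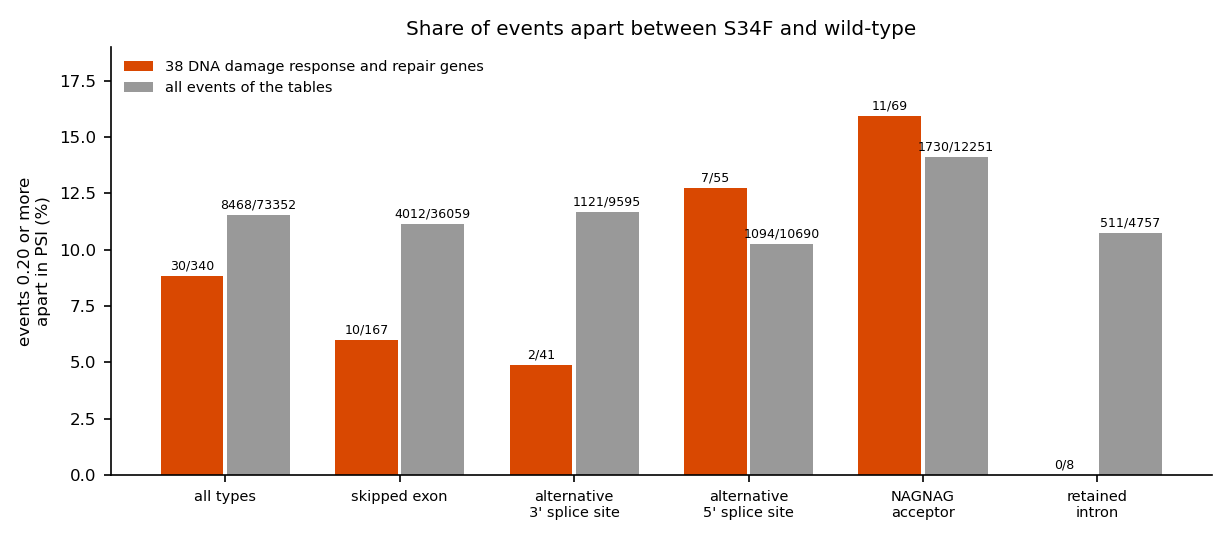
Percent of events whose PSI differed by 0.20 or more between S34F and wild-type (vertical axis), for the events of the 38 genes and for all events of the tables, by type of event, with the number apart and the number with enough reads above each bar. Skipped exons of the 38 genes were apart in 5.99% against 11.1%, and NAGNAG acceptors in 15.9% against 14.1%. The NAGNAG bar of the 38 genes counts a single acceptor pair of RAD51C 4 times.

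The 30 events fell in 18 of the 38 genes. RAD51C had 5, SMARCAL1 and FANCD2 3 each, 4 genes had 2 and 11 had 1. By role, and beside 11.5% of all events, 5 of 23 events were apart among the helicases and fork remodelling enzymes, of which 3 were in SMARCAL1, 7 of 58 in the Fanconi anaemia genes, 6 of 50 in homologous recombination, 3 of 27 in the MRN complex, 2 of 19 in mismatch repair, 4 of 70 in checkpoint signalling, 1 of 33 in single-strand break and base excision repair, 1 of 19 in nucleotide excision repair and 1 of 4 in POLH. The Ku genes XRCC5 and XRCC6 had 0 of 29 events apart and the RPA genes 0 of 8. Events of a gene share reads and transcripts, and are not separate observations.

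**Figure D3:**
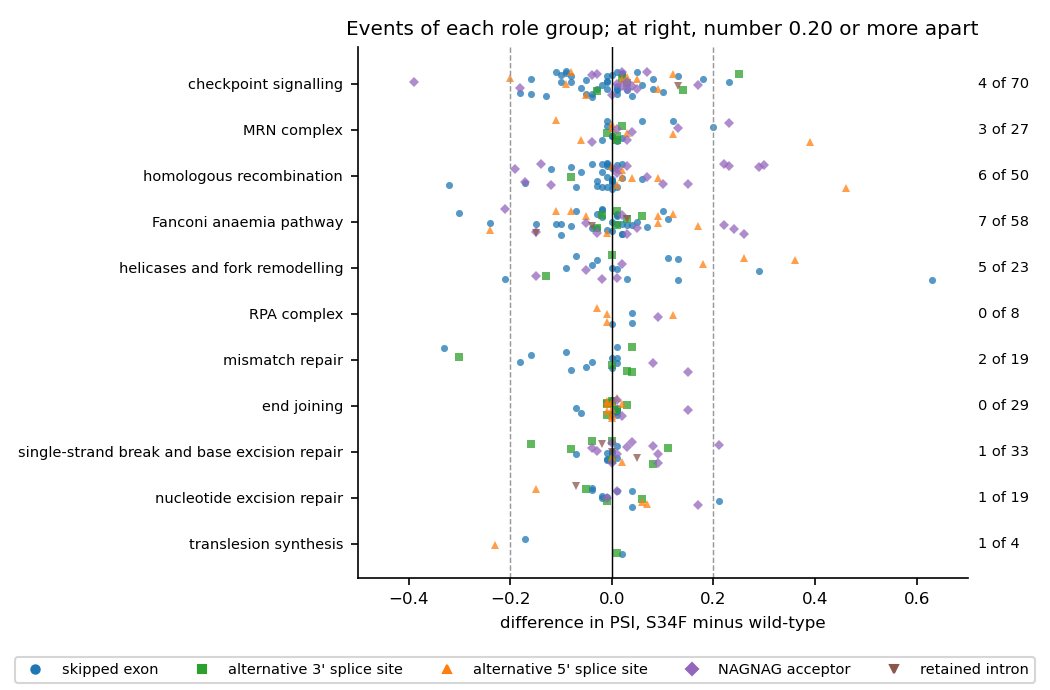
Difference in PSI, S34F minus wild-type (horizontal axis), of each of the 340 events, in rows by role group and with a symbol for each event type; vertical position within a row carries no value, and dashed lines mark 0.20 in either direction. Events of the Ku genes, in the row for end joining, all lie between the dashed lines, and the SMARCAL1 exon at 0.63 lies farthest to the right.

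Among the checkpoint genes, ATM, the kinase that responds to double-strand breaks, had an exon with its acceptor at chr11:108095511 that was included at 0.25 for S34F and 0.02 for wild-type, with 971 and 1566 reads. FPKM of ATM was 28.9 and 35.8 in the parental line, 32.2 and 40.7 in WT dox-, 30.4 in S34F dox-, 45.5 and 67.2 in WT dox+, and 39.03 and 54.6 with S34F dox+. The induced groups overlapped, and both lay above the uninduced libraries apart from S34F dox+ replicate 1, which was below WT dox- replicate 2. TOPBP1, an activator of ATR, used the upstream member of an acceptor pair 5 bases apart, at chr3:133379978 and 133379973 on the minus strand, at 0.30 for S34F and 0.05 for wild-type, with 1851 and 2855 reads. FPKM of TOPBP1 was 56.6 and 41.3 in the parental line, 47.3 and 44.1 in WT dox-, 46.9 in S34F dox-, 49.2 and 46.9 in WT dox+, and 40.3 and 46.8 with S34F dox+, with the 2 induced groups less than 1 FPKM apart at their nearest values.

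ATRIP, the partner that brings ATR to single-stranded DNA, had, of the 38 genes, the largest shift away from an upstream acceptor, at chr3:48491896 against 48491899, with a PSI of 0.36 for S34F and 0.75 for wild-type with 70 and 99 reads. FPKM of ATRIP was 4.74 and 5.64 in the parental line, 6.32 and 5.62 in WT dox-, 5.09 in S34F dox-, 8.39 and 4.95 in WT dox+, and 7.87 and 6.66 with S34F dox+, and the induced groups overlapped. In CHEK2, the kinase downstream of ATM, a donor pair 36 bases apart was used in the longer form at 0.73 for S34F and 0.93 for wild-type. FPKM of CHEK2 was 12.1 and 19.2 in the parental line, 14.9 and 13.9 in WT dox-, 15.1 in S34F dox-, 13.1 and 16.6 in WT dox+, and 13.9 and 16.9 with S34F dox+, and the induced groups overlapped. CHEK2 has near-identical copies elsewhere in the genome, and reads divided among them make both its FPKM and its PSI uncertain.

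CHEK1, the kinase downstream of ATR, ATR itself and TP53BP1, which steers repair towards end joining, had 0 events apart, with largest differences of 0.12, 0.14 and -0.18. Of the checkpoint genes CHEK1 had the lowest p in expression. FPKM of CHEK1 was 71.6 and 73.3 in the parental line, 66.7 and 78.2 in WT dox-, 90.7 in S34F dox-, 78.8 and 93.98 in WT dox+, and 67.6 and 70.7 with S34F dox+. Both S34F dox+ libraries were below both WT dox+ libraries, with a log2 difference of -0.31 (standard error 0.13, adjusted p = 0.724 from limma).

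The MRN complex holds broken ends and activates ATM. In MRE11A, its nuclease, the longer of 2 donors 107 bases apart, at chr11:94226850 on the minus strand, was used at 0.50 for S34F and 0.11 for wild-type, with 114 and 161 reads. FPKM of MRE11A was 44.5 and 51.7 in the parental line, 41.9 and 42.03 in WT dox-, 42.8 in S34F dox-, 49.9 and 43.5 in WT dox+, and 51.4 and 47.6 with S34F dox+, and the induced groups overlapped. NBN, the subunit that binds ATM, had an exon included at 0.79 for S34F and 0.59 for wild-type and a NAGNAG pair with the upstream acceptor used at 0.55 and 0.32, with 1384 and 2123 reads for the exon and 1368 and 2108 for the pair. FPKM of NBN was 24.3 and 20.4 in the parental line, 29.98 and 21.9 in WT dox-, 25.7 in S34F dox-, 25.3 and 23.7 in WT dox+, and 22.8 and 22.6 with S34F dox+, with all 4 induced libraries between 22.6 and 25.3. RAD50 had 0 of 6 events apart. Of the 3 genes MRE11A had the lowest p in expression, at a log2 difference of 0.09 (adjusted p = 0.935 from limma).

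In homologous recombination, BRCA2, a central protein of this pathway, had the second largest difference of the gene group. Its 2 donors 4 bases apart, at chr13:32890664 and 32890660, join to the acceptor at 32893214, and the longer form had a PSI of 0.64 for S34F and 0.18 for wild-type with 961 and 1459 reads. The forms differ by 4 bases, which is not a whole number of codons. FPKM of BRCA2 was 15.7 and 10.4 in the parental line, 16.3 and 20.5 in WT dox-, 16.7 in S34F dox-, 18.6 and 18.7 in WT dox+, and 21.9 and 19.1 with S34F dox+, so the S34F dox+ libraries lay above the WT dox+ libraries by a small margin.

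RAD51C, another gene of this pathway, had 5 events apart. An exon with its acceptor at chr17:56801401 was included at 0.28 for S34F and 0.60 for wild-type, with 249 and 410 reads. The acceptor pair at 56772292 and 56772295 was listed with 4 upstream donors, and the upstream acceptor was used at 0.46 to 0.58 in S34F and 0.24 to 0.29 in wild-type in all 4. FPKM of RAD51C was 31.3 and 38.02 in the parental line, 32.2 and 38.3 in WT dox-, 41.05 in S34F dox-, 38.7 and 37.5 in WT dox+, and 40.05 and 28.3 with S34F dox+, and the induced groups overlapped. BRCA1, with 19 events, PALB2 and BARD1 had 0 apart and largest differences of -0.17, -0.17 and -0.06. BARD1, the RING partner of BRCA1, had the lowest p in expression of this role, at a log2 difference of 0.18 (adjusted p = 0.819 from limma).

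The Fanconi anaemia genes had 7 events apart in 3 genes. FANCD2, which is ubiquitinated together with FANCI at crosslinks, had an exon included at 0.45 for S34F and 0.75 for wild-type. It had 2 NAGNAG pairs apart in opposite directions, with the upstream acceptor at chr3:10103835 used at 0.16 against 0.37 and that at 10127496 at 0.37 against 0.15. Reads were 184 and 242 for each of these events. FPKM of FANCD2 was 23.1 and 29.9 in the parental line, 34.3 and 25.1 in WT dox-, 34.5 in S34F dox-, 31.2 and 21.8 in WT dox+, and 23.1 and 25.4 with S34F dox+, and the induced groups overlapped.

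FANCM, the translocase that anchors the core complex to DNA, had an exon included at 0.70 for S34F and 0.94 for wild-type, and in a NAGNAG pair further downstream used the upstream acceptor, at chr14:45624576, at 0.47 against 0.21. FPKM of FANCM was 6.41 and 8.2 in the parental line, 9.81 and 7.93 in WT dox-, 7.45 in S34F dox-, 9.23 and 12.5 in WT dox+, and 9.4 and 10.5 with S34F dox+, with the S34F dox+ libraries inside the WT dox+ range. FANCA, a subunit of the core complex, used the longer of 2 donors 129 bases apart at 0.51 for S34F and 0.75 for wild-type, and the upstream acceptor of a NAGNAG pair at 0.51 against 0.27 with only 41 and 91 reads. FPKM of FANCA was 26.2 and 19.6 in the parental line, 23.8 and 26.9 in WT dox-, 26.9 in S34F dox-, 25.8 and 28.99 in WT dox+, and 24.2 and 40.2 with S34F dox+, with the second S34F dox+ library highest of the 9. Some FANCA and FANCD2 events are also listed under ZNF276 and FANCD2OS, which overlap these genes.

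FANCI had 0 of 14 events apart, with a largest difference of 0.10, but had the largest difference in expression of the 38 genes between S34F dox+ and WT dox+ with all libraries kept. FPKM of FANCI was 56.7 and 48.5 in the parental line, 60.1 and 58.1 in WT dox-, 59.3 in S34F dox-, 69.2 and 76.3 in WT dox+, and 42.3 and 60.2 with S34F dox+. Both S34F dox+ libraries were below both WT dox+ libraries, but the pair of S34F dox+ libraries lay farther from each other than the second of them lay from the nearer WT dox+ library. The log2 difference was -0.52 (standard error 0.17, 95% interval -0.92 to -0.11, adjusted p = 0.629 from limma). It was -0.77 when S34F dox+ replicate 2 was left out and -0.27 when replicate 1 was, so the value depended on which of them was kept.

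Of the helicases and fork remodelling enzymes besides SMARCAL1, BLM, the helicase that dissolves recombination intermediates, had an exon with its acceptor at chr15:91303211 included at 0.52 for S34F and 0.23 for wild-type, with 561 and 935 reads. FPKM of BLM was 17.9 and 16.3 in the parental line, 24.2 and 20.7 in WT dox-, 21.01 in S34F dox-, 23.2 and 18.9 in WT dox+, and 21.03 and 22.04 with S34F dox+, with the S34F dox+ libraries between those of WT dox+. ZRANB3, another annealing helicase of stalled forks, used the longer of 2 donors 6 bases apart at 0.48 for S34F and 0.22 for wild-type, with 89 and 135 reads. FPKM of ZRANB3 was 3.01 and 4.16 in the parental line, 2.61 and 2.43 in WT dox-, 1.84 in S34F dox-, 5.46 and 6.12 in WT dox+, and 3.55 and 4.09 with S34F dox+. It had the lowest FPKM of the 38 genes in every library but WT dox+ replicate 2. The WT dox+ libraries were above the other 7, while the S34F dox+ libraries lay within the parental range, at a log2 difference from WT dox+ of -0.49 (standard error 0.22, adjusted p = 0.737 from limma). WRN had 0 of 4 events apart.

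RPA1, RPA2 and RPA3 form the complex that coats single-stranded DNA and recruits SMARCAL1, and XRCC5 and XRCC6 encode the Ku proteins that bind broken ends. Of the 8 events of the RPA genes and the 29 of the Ku genes 0 were apart. FPKM of XRCC5 was 299 and 267 in the parental line, 356 and 311 in WT dox-, 322 in S34F dox-, 297 and 321 in WT dox+, and 219.7 and 248 with S34F dox+, with a log2 difference between the induced groups of -0.40 (standard error 0.12, adjusted p = 0.568 from limma), the lowest p of the 38 genes. Its partner XRCC6 was at 281 and 292 with WT dox+ against 302 and 259 with S34F dox+, a log2 difference of -0.03 (95% interval -0.31 to 0.24). RPA1 had the lowest p of its complex, at 39.8 and 43.6 with WT dox+ against 36.9 and 32.5 with S34F dox+ in FPKM and a log2 difference of -0.26 (adjusted p = 0.749 from limma).

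In mismatch repair, PMS2, the endonuclease subunit, had an exon included at 0.30 for S34F and 0.63 for wild-type with 370 and 595 reads. The same exon has a second acceptor 5 bases upstream, at chr7:6045662 against 6045657 on the minus strand, whose use was 0.03 for S34F and 0.33 for wild-type. FPKM of PMS2 was 11.01 and 11.9 in the parental line, 11.9 and 11.7 in WT dox-, 11.7 in S34F dox-, 13.2 and 10.5 in WT dox+, and 11.8 and 11.7 with S34F dox+, and the gene varied less over the 9 libraries than any other of the 38, with a coefficient of variation of 6.1%. PMS2 has near-identical pseudogenes, so its reads may be divided among copies. MSH6, the subunit that binds mismatches, had 0 of 5 events apart. FPKM of MSH6 was 155 and 138 in the parental line, 146 and 155 in WT dox-, 144 in S34F dox-, 142 and 146 in WT dox+, and 118 and 113 with S34F dox+, with both S34F dox+ libraries below all 7 others and a log2 difference of -0.32 (standard error 0.10, adjusted p = 0.619 from limma).

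In single-strand break and base excision repair, LIG1, the replicative ligase, had a NAGNAG pair with the upstream acceptor at chr19:48654596 used at 0.45 for S34F and 0.24 for wild-type, with 330 and 512 reads. FPKM of LIG1 was 45.4 and 47.2 in the parental line, 36.01 and 47.9 in WT dox-, 40.6 in S34F dox-, 46.01 and 47.9 in WT dox+, and 43.2 and 50.4 with S34F dox+, and the induced groups overlapped. PARP1, XRCC1 and LIG3 had 0 events apart, and LIG3, the ligase that works with XRCC1, had the lowest p of the role, at 15.5 and 19.1 with WT dox+ against 18.3 and 25.1 with S34F dox+ in FPKM and a log2 difference of 0.30 (adjusted p = 0.818 from limma). In nucleotide excision repair, ERCC2, a helicase of TFIIH, had an exon included at 0.90 for S34F and 0.69 for wild-type with 225 and 215 reads. ERCC1 and XPC had 0 of 5 events apart each, and XPC, which senses distorted DNA, had the lowest p of the role at a log2 difference of 0.10 (adjusted p = 0.962 from limma). POLH, the polymerase that copies past ultraviolet damage, used the longer of 2 donors 35 bases apart, at chr6:43550878, at 0.38 for S34F and 0.61 for wild-type. FPKM of POLH was 8.26 and 8.63 in the parental line, 8.62 and 8.94 in WT dox-, 11.2 in S34F dox-, 9.86 and 8.86 in WT dox+, and 11.5 and 9.9 with S34F dox+, so the induced groups nearly touched without overlap.

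For expression between S34F dox+ and WT dox+, the main comparison of the study, 0 of the 38 genes passed an adjusted p under 0.05 in limma, against 0.0198% of the 15179 tested genes higher and 0.0329% lower. Without adjustment, at a p under 0.05, S34F dox+ was lower in 4 of the 38 and higher in 0, against 2.77% and 4.01% of all genes. These were XRCC5, MSH6, FANCI and CHEK1, and 0 of the 4 had a splicing event apart. The median log2 difference of the 38 genes was -0.020 and that of all genes 0.029. Of the 38, 22 were lower and 16 higher, against 44.6% of all genes lower. The 2 groups did not overlap, with S34F dox+ lower, in 10 genes, XRCC5, MSH6, FANCI, CHEK1, ZRANB3, RPA1, SMARCAL1, PALB2, TOPBP1 and NBN, against 15.3% of all genes, and with S34F dox+ higher in 3 genes, BARD1, POLH and BRCA2, against 20.5%.

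The 95% interval of the difference lay within 1 on the log2 scale, a factor of 2, for all 38 genes, and within 0.5 for 13 of them. A miss of the threshold does not show that levels were equal. The balance depended on the unit. With TPM, the other unit deposited, the median of all genes was -0.074 in place of 0.029, and 29 of the 38 genes were lower and 9 higher with a median of -0.14. XRCC5, MSH6, FANCI and CHEK1 kept a lower level in S34F dox+ with TPM and with median-ratio and quantile scaling, whereas BLM, CHEK2, MRE11A, PARP1, RAD50, RPA2 and XPC were higher with FPKM and lower with TPM. As each induced library was left out, the median of the 38 genes lay between -0.077 and -0.024, and that of all genes between 0.0017 and 0.049. The unadjusted count of 4 lower genes fell when some single induced libraries were left out, in fits with 1 library in a group. At an unadjusted p under 0.05, 2 of the 38 were lower and 0 higher when the 4 induced libraries were fitted alone. There, 384 of all genes were lower and 539 higher. With TPM 7 of the 38 were lower and 0 higher, where 296 of all genes were higher and 1016 lower. With median-ratio scaling, quantile scaling or no minimum FPKM, 6 of the 38 were lower and 0 higher. Of all genes, 509 were lower and 498 higher with median-ratio scaling, and 616 and 559 with quantile scaling. Without a minimum FPKM, 1147 of the larger set of genes were lower and 1454 higher.

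**Figure D4:**
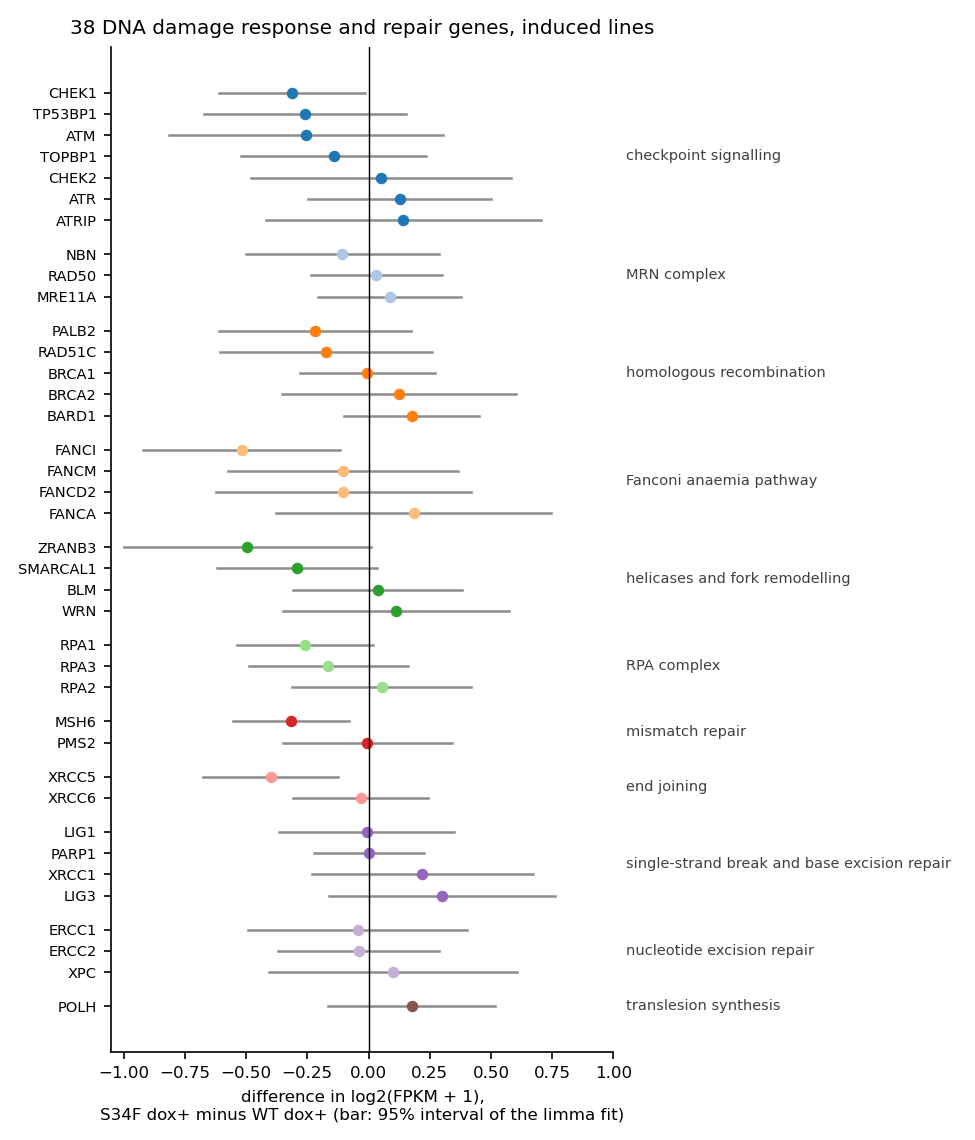
Difference in log2(FPKM + 1), S34F dox+ minus WT dox+ (horizontal axis), for each of the 38 genes by role, with 2 libraries a group. Points are the differences and bars their 95% intervals in the limma fit; FANCI at -0.52 and ZRANB3 at -0.49 lie farthest to the left and LIG3 at 0.30 farthest to the right, and 0 of the 38 passed an adjusted p under 0.05.

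In the wild-type line, doxycycline with expression of the wild-type construct, WT dox+ against WT dox-, gave 0 genes of the 38 at an adjusted p under 0.05 in limma, against 0.00659% of all genes in each direction. At an unadjusted p under 0.05, 3 were higher, ZRANB3, ATM and TP53BP1, and 2 were lower, ERCC2 and PARP1, against 8.8% and 5.59% of all genes. FPKM of ERCC2 was 18.1 and 20.03 in the parental line, 30.9 and 30.9 in WT dox-, 23.4 in S34F dox-, 18.8 and 16.6 in WT dox+, and 18.9 and 15.6 with S34F dox+. The 2 WT dox- libraries stood above the other 7 and nearly coincided, with a log2 difference of -0.77 on induction (standard error 0.14, adjusted p = 0.126 from limma). FPKM of PARP1, the sensor of strand breaks that makes poly(ADP-ribose), was 154 and 150.04 in the parental line, 191 and 187 in WT dox-, 202 in S34F dox-, 141 and 156 in WT dox+, and 146 and 152 with S34F dox+. Its 3 uninduced libraries of the transduced lines were all above the parental and induced ones, with a log2 difference of -0.35 on induction (adjusted p = 0.200 from limma). The groups did not overlap in 9 genes with WT dox+ higher and 8 with WT dox+ lower, against 28.9% and 20.8% of all genes. ZRANB3 had the largest difference in this comparison, 0.95 (standard error 0.22, adjusted p = 0.163 from limma). All 7 checkpoint genes had positive differences, from 0.028 to 0.60, where 8529 of all 15179 genes were higher with a median of 0.049. The count became 6 of 7 with median-ratio and 5 of 7 with quantile scaling, where the medians of all genes were 0.014 and -0.027. Of the 7 genes 2 were at an unadjusted p under 0.05, beside 8.8% of all genes higher at that level. As each library of this comparison was left out, the median of the 38 genes lay between 0.033 and 0.057, and that of all genes between 0.031 and 0.067.

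WT dox- against the parental line shares the WT dox- libraries with the comparison above, so the values of each are given side by side and are not independent. Of the 38 genes 0 passed an adjusted p under 0.05 in limma, against 0.0395% of all genes higher and 0.0593% lower. Without adjustment, at a p under 0.05, 4 were higher and 0 lower, ERCC2 at 0.67, PARP1 at 0.31, BLM at 0.37 and BRCA2 at 0.48 on the log2 scale, against 5.79% and 6.54% of all genes. Of the 38 genes 29 were higher, with a median of 0.078 where that of all genes was 0, and the groups did not overlap in 9 genes with WT dox- higher and 2 with it lower, against 21.6% and 22.4% of all genes, and with TPM 34 were higher with the median of all genes at 0.086. As each library of this comparison was left out, the median of the 38 genes lay between 0.077 and 0.10, and that of all genes between -0.0080 and 7.2e-05. Of the 23 proliferation genes 0 passed an adjusted p under 0.05 in limma here, and 17 were higher and 6 lower, against 7525 and 7625 of all 15179 genes. The 23 genes summed to 2278 and 2283 FPKM in the parental line, 2613 and 2623 in WT dox-, 2693 in S34F dox-, 2303 and 2398 in WT dox+, and 2122 and 2249 with S34F dox+. At an unadjusted p under 0.05, 9 of 23 were higher in WT dox- than in the parental line, against 5.79% of all genes. At that level 4 of 23 were lower in WT dox+ than without doxycycline, against 5.59% of all genes. The part of the proliferation genes in the values of the 38 genes was not tested.

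Without doxycycline, the single S34F dox- library differed from WT dox- at an unadjusted p under 0.05 in 1 of the 38 genes, BARD1, at a log2 difference of -0.38 (adjusted p = 1.00 from limma), against 1.63% of all genes lower and 1.48% higher. None of the 38 passed an adjusted p under 0.05, against 0.0264% of all genes higher and 0.0198% lower. Of the 38, 18 were higher, against 7300 of all 15179 genes. With quantile normalization 13 of the 38 were higher, with the median of all genes at 0. The response to doxycycline differed between the lines at an unadjusted p under 0.05 in 3 genes, with CHEK1 at -0.64 and RPA1 at -0.48 lower in the S34F line and BARD1 at 0.56 higher, against 1.21% and 2.21% of all genes. None of these passed an adjusted p under 0.05 in limma, against 0.00659% of all genes higher and 0.0198% lower, their adjusted p being 1.00. Of the 38, 17 were higher, against 8225 of all 15179 genes. With TPM 10 of the 38 were higher, and the median of all genes was -0.11 in place of 0.035. Both comparisons share the WT dox- libraries and rest on 1 S34F dox- library, whose spread was taken from the other groups. The call of BARD1 in S34F dox- did not hold without WT dox- replicate 2. Between S34F dox- and WT dox-, the median of the 38 genes was 0.012 without WT dox- replicate 1 and -0.021 without replicate 2. Those of all genes were -0.010 and -0.0021. For the difference of responses, each library it uses but S34F dox- was left out in turn. The median of the 38 genes then lay between -0.095 and 0.015, and that of all genes between 0.010 and 0.057. With TPM the difference of responses had 4 of the 38 genes lower and 0 higher at an unadjusted p under 0.05. Of all genes, 481 were lower and 171 higher there.

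**Figure D5:**
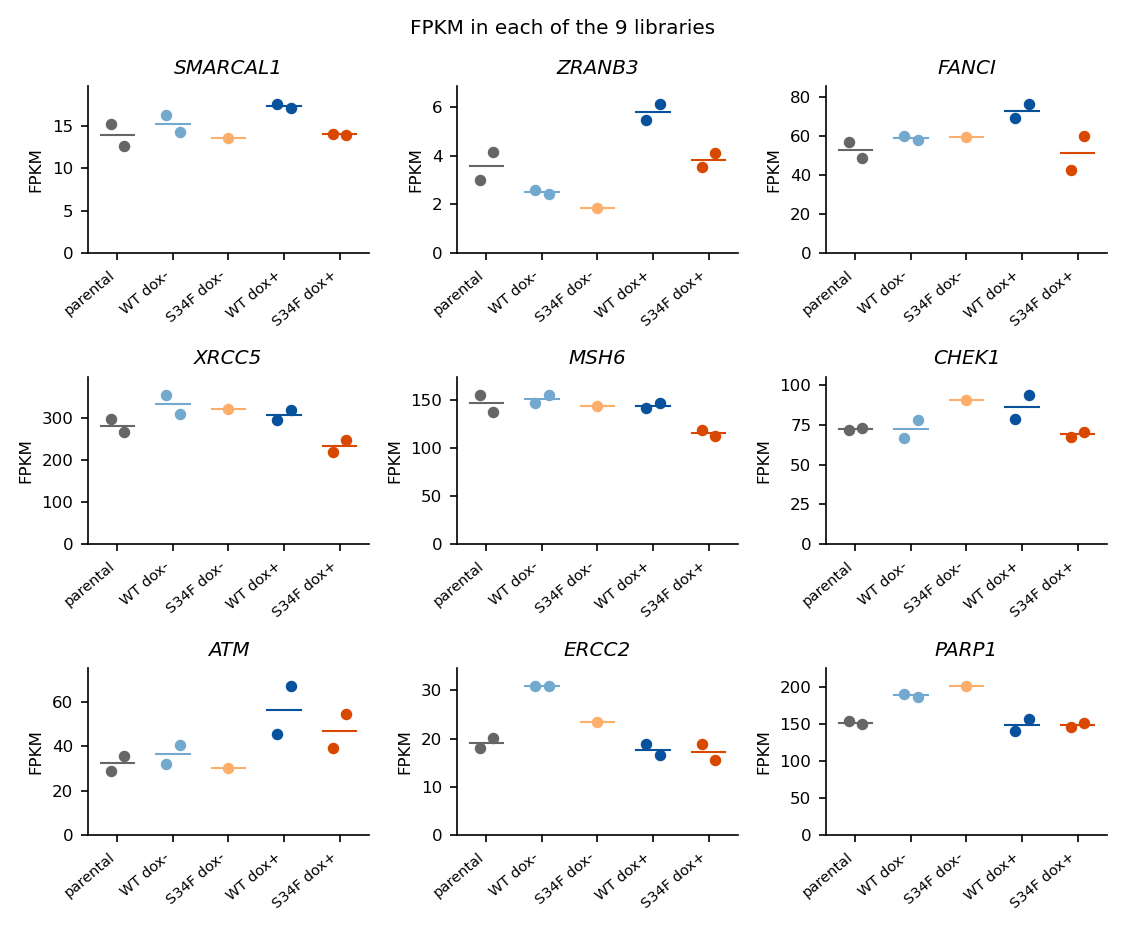
FPKM (vertical axes, from 0) of 9 of the 38 genes in each library, with 1 point per library and a line at the group mean, for the parental line, WT dox-, S34F dox-, WT dox+ and S34F dox+. SMARCAL1, ZRANB3, FANCI, XRCC5, MSH6 and CHEK1 show both S34F dox+ points below both WT dox+ points, and ERCC2 shows the 2 WT dox- points near 30.9 above all others. The 9 genes are a choice, and BARD1, POLH and BRCA2, with both S34F dox+ libraries above both WT dox+ libraries, are not drawn. Of all genes 15.3% were lower and 20.5% higher in S34F dox+ without overlap.

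The rest of the pathway was read from 2 further lists. Of 82 other repair genes 0 passed an adjusted p under 0.05 in limma between S34F dox+ and WT dox+. An unadjusted p under 0.05 was reached by 5 higher and 1 lower gene, where 4.01% of all genes were higher and 2.77% lower, with a median of 0.030 against 0.029. The 3 with the lowest p were HLTF, a fork remodeller related to SMARCAL1, at 32.6 and 26.3 with WT dox+ against 40.2 and 41.1 with S34F dox+ in FPKM and a log2 difference of 0.46, MLH3, a mismatch repair gene, at 0.43, and ERCC3, the other helicase of TFIIH, at -0.41. Of 29 other checkpoint and signalling genes 0 passed the adjusted threshold, and an unadjusted p under 0.05 was reached by 1 higher and 2 lower genes, beside the same shares of all genes, BABAM1 of the BRCA1-A complex at 0.39, ETAA1, a second activator of ATR, at -0.42 and the phosphatase gene CDC25C at -0.32, with a median of -0.065. With TPM the medians were -0.079 for the repair list and -0.18 for the checkpoint list, and the former was also negative with quantile scaling at -0.012.

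Genes that respond to the damage signal were read in the same way. Of 18 tested p53 target genes 0 passed an adjusted p under 0.05 in limma, while an unadjusted p under 0.05 was reached by 3 higher and 0 lower genes, beside 4.01% and 2.77% of all genes, with a median of 0.080 that turned to -0.030 with TPM. The 3 were PHLDA3, an inhibitor of AKT, at 14.7 and 15.1 with WT dox+ against 27.5 and 22.02 with S34F dox+ in FPKM and a log2 difference of 0.69 (adjusted p = 0.499 from limma), PLK3, a stress-activated kinase, at 0.94, and SESN1, which restrains mTOR signalling, at 0.77. The summed FPKM of the 20 listed targets was 311 and 275 with S34F dox+ against 268 and 257 with WT dox+, without overlap, as in 20.5% of single genes in that direction. This sum was 284 and 285 in the parental line, 266 and 251 in WT dox- and 261 in S34F dox-. The second S34F dox+ library thus lay below both parental libraries. Of the 23 proliferation genes 17 had a lower level with S34F dox+, against 44.6% of all genes, or 16 to 21 under the other scalings, with a median of -0.092. An unadjusted p under 0.05 was reached by 1, RRM2 of ribonucleotide reductase at -0.32, where 2.77% of all genes were lower. TOP2A at -0.18 and MCM6 at -0.25 had the next lowest p of that list. The summed FPKM of the proliferation genes, given above, was lower in both S34F dox+ libraries than in both WT dox+ libraries. Of single genes, 15.3% were lower in that way. The part of the proliferation genes in the differences of the 38 genes between these groups was not tested. In bulk libraries, a lower share of cells that express a gene and less of its RNA in each cell cannot be told apart.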

How the data were processed

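RNA-Seq libraries were made from HCC78 cells with a stranded total RNA kit and sequenced as paired ends. Per the submitters' processing notes, the tools included STAR 2.3.0 and RSEM 1.2.29 and the build was hg19. The authors deposited a table of FPKM and TPM per gene without counts, so sequencing depth in reads is unknown. Whether counting used strand is not given in the sources used here. The event tables were made by the authors with MISO, and hold PSI (a fraction from 0 to 1) and read counts per event for each condition. How replicates were combined is not given in the sources used here. The tables also hold the authors' own differences in PSI and Bayes factors, which were not used. The 2 iCLIP samples were not analysed here.

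Log2(FPKM + 1) of the 15179 genes whose mean reached 1 FPKM was fitted in limma 3.58.1 with a trended variance (R 4.3.3), in one model of 5 groups and 9 libraries. Tests were two-sided and adjusted by Benjamini-Hochberg over all tested genes in each of 5 contrasts. Fold changes on this scale understate those of low genes. The procedure was tested on simulated data. For splicing, the difference was the PSI of S34F minus that of wild-type, of the first-listed form, or of the form with the largest difference where there were more than 2. An event needed 20 reads in each condition, and lines repeating an event were counted once.

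Of 375 events under the 38 symbols, 348 lay on the gene's strand, which came from RefSeq for 31 genes and from the event with most reads for 7. Genes named individually were SMARCAL1, those with an event apart, any past a log2 difference of 0.5 without overlap, and the lowest p of each role or list. Members and lists were chosen with earlier results of these data known. Alternatives changed the pseudocount, filter, scaling, unit, replicate block, left-out library, PSI threshold, read minimum and strand rule.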

Additional observations from a re-analysis of the deposited data

How the results depend on the processing

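Of the 38 genes, 0 passed an adjusted p under 0.05 in limma in any of the 5 expression comparisons, with FPKM or TPM, a pseudocount of 0.1, no minimum or a minimum of 5 FPKM, protein-coding genes only, or median-ratio or quantile scaling. It was also 0 to 0 as each library but the single S34F dox- one was left out, in the comparisons that use that library. With the replicate number as a block it was also 0, with 4 genes lower at an unadjusted p under 0.05 between S34F dox+ and WT dox+, as without it. Deviations from the group means correlated between -0.0756 and 0.0374 for same-numbered libraries, with the single S34F dox- library left out. These correlations do not show whether same-numbered libraries shared a culture or a batch, which was not tested. The splicing count of 30 events became 84 at a difference of at least 0.10 (24.7% against 29.9% of all events), 10 at 0.30 (2.94% against 4.36%), and 19 without NAGNAG acceptors. It was 25 with 100 reads in each condition, 35 with events of the other strand and 29 without events of 3 or more forms. The alternatives on NAGNAG, strand and number of forms were chosen after seeing the data. PSI had 1 value per condition, and FPKM 1 or 2 libraries a group, which limit the precision.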

Other observations

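The event tables list 27 events under symbols of the 38 genes that lie on the opposite strand, and all 27 are also listed under an overlapping gene. Of those with at least 20 reads in each condition, 5 differed by at least 0.20 in PSI. Under NBN, 3 are also listed under DECR1, a mitochondrial enzyme of fatty acid oxidation, with an exon included at 0.52 for S34F and 0.94 for wild-type with 155 and 209 reads, another at 0.31 and 0.71 from 41 and 59 reads, and an alternative 3′ splice site at 0.66 and 0.92 from 126 and 199 reads. All 3 were lower in S34F. Under ERCC1, 2 NAGNAG acceptors are also listed under FOSB, a subunit of the AP-1 transcription factor, with the upstream acceptor used at 0.60 for S34F and 0.36 for wild-type and at 0.55 and 0.25. A count by symbol alone would have credited these events to repair genes, and they were left out of the counts of the 38 genes.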
